A study of Mus musculus with 6 samples.

Results

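The collagen genes of the mouse were followed in RNA of whole fetal ovaries. The members were all protein-coding genes of the deposited expression table whose symbol is Col, a type number, the letter a and a chain number and nothing more, and they were 44 of 54532 genes. The ovaries came from C57BL/6 mice at 16.5 dpc, in 3 Ctrl libraries, which the labels call wild type, and 3 cKO libraries of genotype *Stra8-GFPCre*; *Srsf1* Fl/Fl. In cKO mice the *Stra8-GFPCre* transgene, which is active in germ cells entering meiosis, removes floxed exons of the splicing factor gene *Srsf1*, so the deletion is aimed at germ cells and not at the somatic cells around them. The labels describe no Cre transgene and no floxed allele in Ctrl, so transgene and deletion cannot be told apart. The libraries of a group are described as biological replicates, and whether ovaries were pooled is not stated. Expression is given as FPKM, fragments normalised for gene length and library depth.

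Collagens are the main protein of connective tissue. Each molecule is a rope of 3 chains, and each chain carries long runs of glycine followed by a pair of other residues, often proline and hydroxyproline. Types I, III and V build fibrils in the stroma, the supporting tissue between the ovarian cords, type VI forms beaded filaments around cells, and type IV forms the sheet of the basement membrane that later surrounds each follicle. Fibroblast-like stromal cells make most fibrillar collagen.

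The repeat is visible in single exons, which are shown because it is what the members share beyond their names. The 4 exons below come from a pair of the most abundant members and from the members with the lowest p-values in the comparison of cKO with Ctrl, they were read from GENCODE M21 transcripts (GRCm38), and capitals mark the glycine codon (GG and any base) that opens each triplet. They are coding exon 6 of *Col3a1* at chr1:45325360-45325413 (plus strand), coding exon 8 of *Col1a1* at chr11:94939904-94939957 (plus strand), coding exon 12 of *Col6a6* at chr9:105760051-105760104 (minus strand) and coding exon 5 of *Col4a6* at chrX:141232449-141232493 (minus strand).
Col3a1 exon 6: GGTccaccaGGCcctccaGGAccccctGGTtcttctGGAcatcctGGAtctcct
Col1a1 exon 8: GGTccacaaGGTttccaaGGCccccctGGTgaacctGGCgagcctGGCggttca
Col6a6 exon 12: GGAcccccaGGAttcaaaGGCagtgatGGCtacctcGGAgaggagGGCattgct
Col4a6 exon 5: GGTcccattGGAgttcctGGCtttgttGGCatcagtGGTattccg
The first 3 exons have 54 bases and 6 triplets each, and the exon of *Col4a6* has 45 bases and 5 triplets. Each was picked as an exon made of whole triplets, and for *Col3a1* and *Col1a1* also for its 54 bases, so the choice set this pattern. Of the exons inside runs, 21 of 43 in *Col1a1* and 2 of 12 in *Col6a6* had 54 bases. In the longest coding transcript of each of the 11 fibril-forming genes, the longest uninterrupted run of triplets was 216 to 344 triplets, with a median of 338, and 302 of the 510 exons inside runs of at least 5 triplets had exactly 54 bases. In those genes 508 of the 510 exons, or 99.6%, were a multiple of 9 bases long. The 6 type IV genes were built differently, with 22 to 27 runs, a longest run of 39 to 66 triplets and a multiple of 9 bases in 82.8% of 128 exons. The 6 type VI genes had 3 to 5 runs, the longest of 37 to 87 triplets, and all 88 exons inside them were multiples of 9 bases.

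Each library held between 14212164 and 16784241 reads on genes, and *Srsf1* (ENSMUSG00000018379) was at 80.2, 70.1 and 63.1 FPKM in Ctrl 1, 2 and 3 and at 32.4, 37.0 and 36.4 FPKM in cKO 1, 2 and 3. The groups did not overlap, and the log2 fold change (cKO against Ctrl, of log2(FPKM + 1)) was -0.99 with a standard error (SE) of 0.13 and an unadjusted p of 0.000158 in limma. Over the 17180 genes with a mean of at least 0.5 FPKM, 460 were higher and 301 were lower at an unadjusted p below 0.05, the limit used in the study, which is 2.68% and 1.75% of the genes tested and 4.43% together. With limma voom on recovered reads, 350 were higher and 343 lower, so the higher genes made 50.5% of these calls and 60.4% of those from FPKM. After Benjamini-Hochberg adjustment limma called 0.00% of the genes, and the smallest adjusted p was 0.392.

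Among collagen genes the mean over the 6 libraries ran from 246 FPKM for *Col3a1* down to 0.0295 FPKM for *Col10a1*. Of the 44 members, 3 were at 100 FPKM or above, 14 were between 10 and 100, 14 were between 1 and 10, and 13 were below 1. Fibril-forming genes held 51.5% of the collagen FPKM, type VI genes 22.1%, type IV genes 13.5%, fibril-associated genes 6.00%, the multiplexins of types XV and XVIII 3.74%, short-chain network genes 1.32%, unclassified types 1.01%, membrane-spanning collagens 0.781% and the anchoring fibril gene *Col7a1* 0.129%. Fibril-forming and type VI genes led the family. Genes best known from cartilage or skin were spread over the range, from *Col9a2* at 24.3 FPKM downward. The cartilage genes *Col2a1*, *Col9a1* and *Col10a1* had means of 0.379, 0.0435 and 0.0295 FPKM, and the hemidesmosome gene *Col17a1* had 0.282 FPKM.

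**Figure D1:**
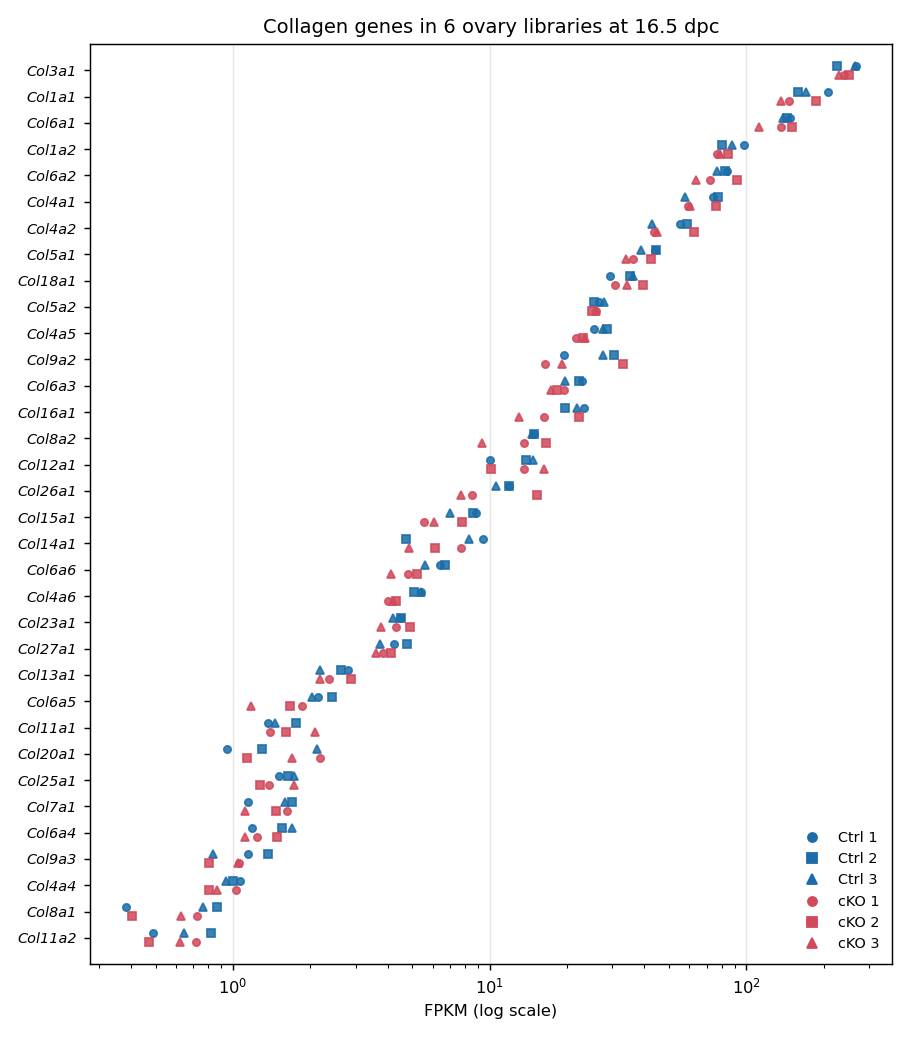
FPKM (log scale) of the 34 collagen genes with a mean of at least 0.5 FPKM, ordered by mean, with 1 point per library (blue Ctrl, red cKO, circle, square and triangle for replicates 1, 2 and 3). Levels span from 246 FPKM for *Col3a1* to 0.628 FPKM for *Col11a2*, and for 29 of the 34 genes the points of the groups overlap.

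*Col3a1* (ENSMUSG00000026043, chromosome 1, 45311538 to 45349706, plus strand) encodes the single chain of type III collagen, the fibril of soft and extensible tissue, and ranked 112 of all genes by mean FPKM. It was at 267, 226 and 265 FPKM in Ctrl 1, 2 and 3 and at 239, 252 and 229 FPKM in cKO 1, 2 and 3. The groups overlapped, and the means of 253 ± 22.9 and 240.0 ± 11.7 FPKM (SD, n = 3) gave a log2 fold change of -0.07 (95% interval -0.38 to 0.24). *Col1a1* (chromosome 11, 94936224 to 94953042) encodes the chain that type I collagen uses in a pair. It was at 208, 159 and 171 FPKM in Ctrl and at 146, 186 and 137 FPKM in cKO, in replicate order as in all lists that follow. Ctrl 1 was highest, cKO 2 lay among the Ctrl libraries, and the log2 fold change was -0.20 (95% interval -0.62 to 0.21). *Col1a2*, on chromosome 6, encodes the other type I chain and was at 97.8, 80.6 and 87.9 FPKM in Ctrl and at 76.6, 85.1 and 79.3 FPKM in cKO. Again the groups overlapped, with a log2 fold change of -0.14 (95% interval -0.43 to 0.15). The molecule contains a pair of *Col1a1* chains and a single *Col1a2* chain, and the ratio of their FPKM was 2.02 ± 0.0995 in Ctrl and 1.94 ± 0.235 in cKO (SD, n = 3), with overlapping groups. FPKM divides by annotated lengths of 6563 bases for *Col1a1* and 12426 bases for *Col1a2*, so this ratio depends on them and does not measure the chains. In reads the genes lay nearer each other, at 20514, 16918 and 19626 for *Col1a1* against 18217, 16207 and 19086 for *Col1a2* in Ctrl.

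Type V collagen sits inside type I fibrils and limits their width. *Col5a1* was at 44.0, 44.5 and 38.8 FPKM in Ctrl and at 36.0, 42.4 and 34.0 FPKM in cKO, a log2 fold change of -0.18 (95% interval -0.49 to 0.13). *Col5a2* was the steadiest of the abundant members, at 26.5, 25.4 and 27.9 FPKM in Ctrl and 26.0, 25.1 and 25.9 FPKM in cKO, with a log2 fold change of -0.05 (95% interval -0.29 to 0.19). It lies tail to tail with *Col3a1* on chromosome 1 with 24614 bases between the genes, and the ratio of *Col3a1* to *Col5a2* was 9.49 ± 0.575 in Ctrl and 9.37 ± 0.622 in cKO (SD, n = 3). *Col5a3*, the third type V chain, was much lower, at 0.637, 0.399 and 0.496 FPKM in Ctrl and 0.266, 0.306 and 0.248 FPKM in cKO. These values stand for 65, 44 and 59 reads against 28, 35 and 24 reads, and every cKO library was below every Ctrl library. The gene was under the minimum of 0.5 FPKM. With no minimum, its log2 fold change was -0.24 at an unadjusted p of 0.0466 in limma, in a fit that called 3.94% of 33797 genes. Of the other 5 fibril-forming genes, *Col27a1* (4.05 FPKM), *Col11a1* (1.61 FPKM) and *Col11a2* (0.628 FPKM) were tested, with log2 fold changes of -0.11, 0.09 and -0.04, and *Col2a1* and *Col24a1* were not. In all, 7 of the 8 fibril-forming genes tested were below 0, none passed the unadjusted limit, and their median log2 fold change was -0.09.

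Type VI gave 3 of the 5 tested members whose groups did not overlap. Its filaments tie cells to the fibrils, and the basic molecule takes a chain each from *Col6a1*, *Col6a2* and *Col6a3*, while *Col6a4*, *Col6a5* and *Col6a6* encode long chains akin to that of *Col6a3*. All 6 genes were tested, all 6 had a log2 fold change below 0, with a median of -0.17 and a range from -0.34 to -0.11, and in 3 of them the groups did not overlap. Over all genes tested, 52.1% were below 0 and the groups did not overlap in 8.68%, or in 4.10% when lower in cKO is required. *Col6a1* was at 148, 144 and 139 FPKM in Ctrl and 136, 150.1 and 112 FPKM in cKO (log2 fold change -0.12, 95% interval -0.47 to 0.22). *Col6a2* was at 84.3, 82.5 and 76.9 FPKM in Ctrl and 71.8, 91.6 and 63.9 FPKM in cKO (log2 fold change -0.11, 95% interval -0.49 to 0.26). In both genes cKO 2 was the highest of all libraries and cKO 3 the lowest, so the groups overlapped, and without cKO 3 the log2 fold changes were -0.0052 for *Col6a1* and -0.0012 for *Col6a2*. They lie on the same strand of chromosome 10 with 85161 bases between them, and their ratio was 1.77 ± 0.0369 in Ctrl and 1.76 ± 0.129 in cKO (SD, n = 3).

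*Col6a3* was at 22.9, 22.2 and 19.6 FPKM in Ctrl and 19.5, 18.3 and 17.3 FPKM in cKO. The groups did not overlap, although Ctrl 3 and cKO 1 nearly met, and the log2 fold change was -0.22 (95% interval -0.49 to 0.06, unadjusted p = 0.101 in limma). *Col6a6* (ENSMUSG00000043719, chromosome 9, 105687809 to 105828160, minus strand) was at 6.37, 6.68 and 5.60 FPKM in Ctrl and 4.78, 5.21 and 4.13 FPKM in cKO, from 876, 992 and 897 reads against 678, 802 and 538 reads. Its lowest Ctrl library was above its highest cKO library. The means of 6.22 ± 0.557 and 4.71 ± 0.544 FPKM (SD, n = 3) gave a log2 fold change of -0.34 (SE 0.13) with an unadjusted p of 0.0384 and an adjusted p of 0.978 in limma. *Col6a5*, its neighbour on the same strand with 27917 bases between them, was at 2.14, 2.43 and 2.03 FPKM in Ctrl and 1.86, 1.67 and 1.17 FPKM in cKO. Here too the groups did not overlap, and the log2 fold change was -0.33 (95% interval -0.70 to 0.05, unadjusted p = 0.0786 in limma). *Col6a4*, the next gene of this row, differed from the others in that its groups overlapped, at 1.19 to 1.69 FPKM in Ctrl and 1.12 to 1.49 FPKM in cKO. The ratio of *Col6a6* to *Col6a5* was 2.83 ± 0.131 in Ctrl and 3.07 ± 0.472 in cKO (SD, n = 3).

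The type IV genes come in head-to-head pairs, in which the genes of a pair point away from each other from a shared stretch of DNA. *Col4a1* and *Col4a2* on chromosome 8 encode the chains found in nearly every basement membrane, and their annotated genes share 22 bases at their starts. *Col4a1* was at 74.3, 77.4 and 57.9 FPKM in Ctrl and 59.3, 76.2 and 60.6 FPKM in cKO (log2 fold change -0.09, 95% interval -0.49 to 0.30). *Col4a2* was at 55.4, 58.8 and 42.7 FPKM in Ctrl and 43.8, 62.3 and 44.7 FPKM in cKO (log2 fold change -0.06, 95% interval -0.51 to 0.39). Both genes were high in Ctrl 1, Ctrl 2 and cKO 2 and low in Ctrl 3, cKO 1 and cKO 3. Their ratio stayed between 1.22 and 1.35 over the 6 libraries, with means of 1.34 ± 0.0199 in Ctrl and 1.31 ± 0.0748 in cKO (SD, n = 3).

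The promoter windows of the pair are shown because the ratio of these members had the narrowest range, from lowest to highest library, of the 8 ratios computed. The RefSeq windows (GRCm38.p6) hold 250 bases before and 50 bases after each start, *Col4a1* at chr8:11312777-11313076 on the minus strand and *Col4a2* at chr8:11312555-11312854 on the plus strand. Capitals mark the 78 bases, chr8:11312777-11312854, that lie in both windows and so appear once on each strand.
Col4a1: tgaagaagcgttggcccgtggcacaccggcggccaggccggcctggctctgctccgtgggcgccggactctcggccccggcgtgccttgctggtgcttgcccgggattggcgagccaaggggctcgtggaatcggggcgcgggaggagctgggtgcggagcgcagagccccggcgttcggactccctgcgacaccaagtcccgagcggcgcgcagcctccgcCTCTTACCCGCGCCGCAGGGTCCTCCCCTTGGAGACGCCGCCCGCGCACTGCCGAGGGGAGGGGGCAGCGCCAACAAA
Col4a2: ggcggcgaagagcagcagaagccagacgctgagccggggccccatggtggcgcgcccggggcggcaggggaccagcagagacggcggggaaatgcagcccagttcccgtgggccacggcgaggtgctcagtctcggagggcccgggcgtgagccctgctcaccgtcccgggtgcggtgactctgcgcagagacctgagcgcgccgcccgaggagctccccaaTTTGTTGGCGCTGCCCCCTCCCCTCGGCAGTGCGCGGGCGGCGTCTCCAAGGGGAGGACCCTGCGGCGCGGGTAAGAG
The windows had a GC content of 74.0% and 73.7%, against a median of 52.7% over all 32851 promoter windows of the table. The GC box GGGCGG, the classical binding motif of SP1, was searched on both strands and occurred once in the *Col4a1* window and 3 times in the *Col4a2* window, and neither held the letters TATAAA. The box of the *Col4a1* window lies in the shared bases, so it is counted in both windows. Over the 38 windows of 35 collagen genes found in the table, 60.5% held a GC box, against 35.7% of all windows, 34.2% held CCAAT against 37.4%, and 13.2% held TATAAA against 13.6%. The median GC content of the collagen windows was 59.8%, and the share of GC boxes was not compared at matched GC content.

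*Col4a5* and *Col4a6* share the X chromosome with 1308 bases between the genes, and their chains join in the basement membranes of smooth muscle and of some epithelia. *Col4a5* (ENSMUSG00000031274, 141475385 to 141689234, plus strand) was at 25.5, 28.7 and 27.7 FPKM in Ctrl and 21.6, 23.1 and 23.4 FPKM in cKO. The groups did not overlap, the means were 27.3 ± 1.61 and 22.7 ± 0.969 FPKM (SD, n = 3), and the log2 fold change was -0.25 (SE 0.11, unadjusted p = 0.0510 in limma), just outside the limit. *Col4a6* (ENSMUSG00000031273, 141165403 to 141474076, minus strand) was at 5.39, 5.06 and 5.38 FPKM in Ctrl and 4.02, 4.31 and 4.19 FPKM in cKO, from 474 to 749 reads. The gap between the groups was wider than the spread within either, with means of 5.27 ± 0.187 and 4.17 ± 0.149 FPKM (SD, n = 3), a log2 fold change of -0.28 (SE 0.11), an unadjusted p of 0.0416 and an adjusted p of 0.978 in limma. Their ratio was 5.18 ± 0.465 in Ctrl and 5.44 ± 0.132 in cKO (SD, n = 3), with overlapping groups.

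The windows of this pair and of *Col6a6* are shown since they belong to the lower members described, with GC boxes (GGGCGG, or CCGCCC where the motif is on the opposite strand) in capitals. *Col4a5* is at chrX:141475169-141475468 on the plus strand, *Col4a6* at chrX:141474027-141474326 on the minus strand and *Col6a6* at chr9:105828036-105828335 on the minus strand.
Col4a5: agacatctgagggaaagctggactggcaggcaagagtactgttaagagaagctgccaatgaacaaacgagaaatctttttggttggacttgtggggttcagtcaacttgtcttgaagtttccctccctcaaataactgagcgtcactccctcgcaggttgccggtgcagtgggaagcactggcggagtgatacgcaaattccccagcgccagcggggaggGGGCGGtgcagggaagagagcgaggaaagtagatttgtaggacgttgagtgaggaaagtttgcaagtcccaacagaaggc
Col4a6: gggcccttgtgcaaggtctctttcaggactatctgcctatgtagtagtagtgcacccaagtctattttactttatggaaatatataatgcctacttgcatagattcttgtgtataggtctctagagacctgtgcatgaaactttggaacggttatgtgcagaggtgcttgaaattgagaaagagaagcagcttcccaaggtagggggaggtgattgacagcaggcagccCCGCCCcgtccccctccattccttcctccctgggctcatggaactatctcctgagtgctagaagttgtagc
Col6a6: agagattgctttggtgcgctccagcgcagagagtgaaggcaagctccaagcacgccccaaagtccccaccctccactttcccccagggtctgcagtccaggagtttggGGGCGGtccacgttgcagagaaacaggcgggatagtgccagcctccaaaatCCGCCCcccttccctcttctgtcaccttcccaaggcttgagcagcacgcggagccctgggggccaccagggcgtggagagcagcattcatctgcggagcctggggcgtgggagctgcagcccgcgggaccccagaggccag
Unlike the windows of *Col4a1* and *Col4a2*, those of *Col4a5* and *Col4a6* did not overlap, and their GC content was 52.7% and 48.3%. The window of *Col6a6* had 65.0%. Each held at least 1 GC box, which is a description of the letters and not of binding.

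The remaining pair, *Col4a3* and *Col4a4* on chromosome 1 with 71 bases between the genes, encodes chains best known from the kidney filter. *Col4a4* was at 1.06, 0.995 and 0.939 FPKM in Ctrl and 1.02, 0.803 and 0.863 FPKM in cKO, with a log2 fold change of -0.08. *Col4a3* was under the minimum, at 0.314, 0.273 and 0.350 FPKM in Ctrl and 0.688, 0.263 and 0.481 FPKM in cKO. Its highest values were in cKO 1 and cKO 3, and its cKO 2 value was the lowest of all. It shares 5.65% of its exon bases with a transcript on the opposite strand, and no source used here says if reads were assigned by strand. All 5 type IV genes tested had a log2 fold change below 0, with a median of -0.09, and in 2 the groups did not overlap, where 52.1% of all genes were below 0 and 4.10% lay lower without overlap.

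**Figure D2:**
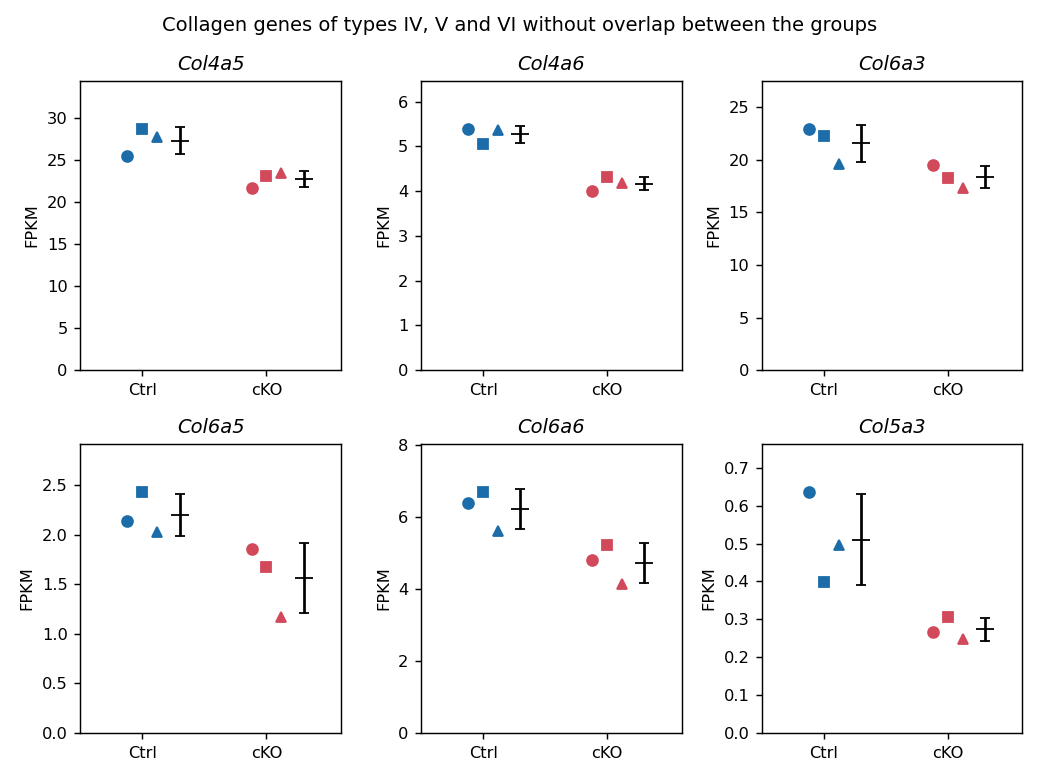
FPKM by library of the 6 collagen genes of types IV, V and VI whose groups did not overlap (circle, square and triangle for replicates 1, 2 and 3, black bar and whiskers for mean and SD, n = 3, axes from 0). In each panel all 3 cKO points lie below all 3 Ctrl points, with the widest relative gap in *Col5a3*, which rests on 24 to 65 reads per library.

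The multiplexins lie at basement membranes, and a fragment of type XVIII is endostatin. *Col18a1* was at 29.5, 35.2 and 36.3 FPKM in Ctrl and 30.7, 39.4 and 34.4 FPKM in cKO, with a log2 fold change of 0.05 (95% interval -0.29 to 0.39), one of 4 tested members above 0. *Col15a1* was lower in mean, at 7.01 to 8.87 FPKM in Ctrl and 5.53 to 7.82 FPKM in cKO (log2 fold change -0.30, unadjusted p = 0.107 in limma). Among fibril-associated collagens, which decorate fibrils rather than form them, *Col9a2* was the highest, at 19.5, 30.4 and 27.5 FPKM in Ctrl and 16.4, 33.0 and 19.1 FPKM in cKO. It was also the most variable of the 12 most abundant members, and its interval of -0.88 to 0.46 around a log2 fold change of -0.21 reached lower than that of any other member tested. Its cartilage partners *Col9a1* and *Col9a3* were at 0.0435 and 1.04 FPKM in mean, and *Col9a3* shares 6.07% of its exon bases with *Tcfl5* on the opposite strand. *Col16a1* had the lowest log2 fold change of the members tested, -0.342, barely below *Col6a6* at -0.340. The added 1 shrinks differences at low levels, and in mean FPKM *Col16a1* differed by -20.4%, against -28.8% for *Col6a5* and -24.3% for *Col6a6*. The SE of *Col16a1*, 0.20, was large, since cKO 2 at 22.3 FPKM lay among the Ctrl libraries (19.6 to 23.3 FPKM) while cKO 1 and cKO 3 were at 16.2 and 13.0 FPKM. *Col14a1* was at 4.74 to 9.39 FPKM in Ctrl and 4.86 to 7.74 FPKM in cKO, with a log2 fold change of -0.20 (95% interval -0.82 to 0.42). Of the 6 fibril-associated genes tested 4 were below 0, and *Col12a1* and *Col20a1*, at 0.04 and 0.13, were above.

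The other tested members were the short-chain network genes *Col8a1* and *Col8a2*, the membrane-spanning *Col13a1*, *Col23a1* and *Col25a1*, *Col7a1* and *Col26a1*, a type first described from testis and ovary. Their 7 log2 fold changes lay between -0.19 and -0.02, and their groups overlapped. The 10 untested members were *Col2a1*, *Col5a3*, *Col24a1*, *Col4a3*, *Col9a1*, *Col19a1*, *Col22a1*, *Col10a1*, *Col17a1* and *Col28a1*. Of these, *Col28a1* was, like *Col5a3*, below every Ctrl library in cKO, with 19, 29 and 20 reads against 12, 18 and 14. *Col9a1*, *Col10a1* and *Col19a1* had 0 to 15 reads per library, too few to show a difference at this depth.

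Over the 34 members tested, 2 passed the unadjusted limit, *Col6a6* and *Col4a6*, both lower. They make 5.88% of the members tested, near the 4.43% of all genes in either direction, and 1.75% of all genes were called lower and 2.68% higher. With voom 3 members were called, *Col4a6*, *Col6a5* and *Col6a6*, all lower, against 4.03% of all genes. No member had an adjusted p below 0.978 in limma, and 32 of the 34 intervals included 0, from -0.88 at the lowest bound to 0.69 at the highest. A log2 fold change below 0 was found in 30 of 34 members (88.2%), against 52.1% of all genes tested, and the median was -0.11 against -0.01 over all genes. In 5 members (14.7%), *Col4a5*, *Col4a6*, *Col6a3*, *Col6a5* and *Col6a6*, the groups did not overlap, all 5 lower in cKO, against 8.68% of all genes in either direction and 4.10% lower. For each of these 5 the exact permutation test gave p = 0.1, the smallest that 3 against 3 libraries allow. Any gene whose groups do not overlap gives this value, so the test adds nothing to the lack of overlap. The members are read from the same 6 libraries and are no independent observations.

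**Figure D3:**
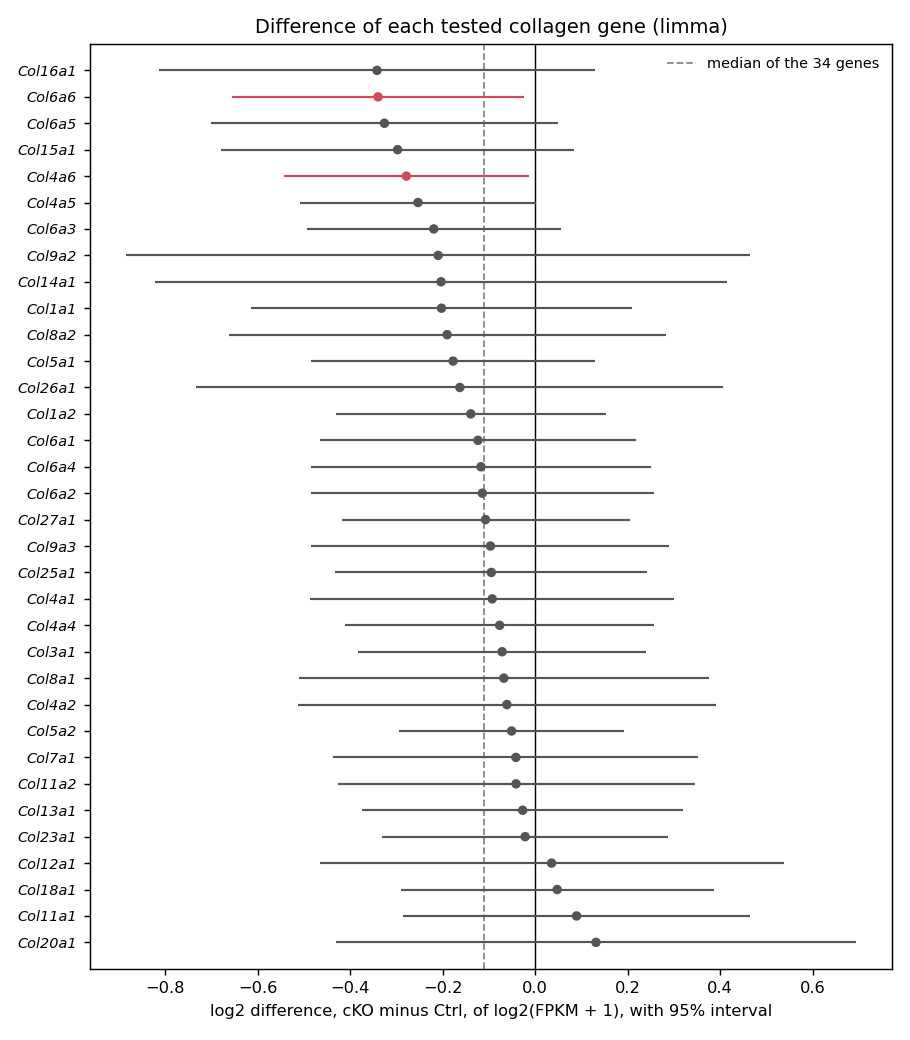
Log2 fold change (cKO against Ctrl, of log2(FPKM + 1)) of the 34 collagen genes tested, with the 95% interval from limma, red for an unadjusted p below 0.05, and a dashed line at the median of -0.11. Of the 34 points, 30 lie left of 0, and only the intervals of *Col6a6* and *Col4a6* do not reach it.

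These counts changed with single libraries. Without cKO 2, 6 members passed the unadjusted limit, all lower, namely *Col4a5*, *Col4a6*, *Col6a6*, *Col15a1*, *Col16a1* and *Col26a1*. That fit called 14.5% of all genes, 1036 lower and 1457 higher, and the median over the members was -0.19. Without Ctrl 1, Ctrl 2, cKO 1 or cKO 3 the count of members was 0, and without Ctrl 3 it was 1, *Col6a6*. Over all genes, 301 were called lower and 460 higher with no library left out. Lower and higher calls over all genes numbered 382 and 243 without Ctrl 1, and 163 and 201 without Ctrl 2. They numbered 628 and 548 without Ctrl 3, 211 and 230 without cKO 1, and 185 and 239 without cKO 3. The number of members below 0 stayed between 26 and 32 of 34 in these 6 fits, and the median was -0.065 without cKO 3. Among the members tested 15 had their lowest value in cKO 3, and 9 had their highest value in cKO 2, the same number as in Ctrl 1 and 1 fewer than in Ctrl 2.

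As a share of all reads on genes, collagens took 0.939%, 0.919% and 0.948% in Ctrl and 0.815%, 0.940% and 0.789% in cKO libraries. In this measure cKO 2 lay among the Ctrl libraries and the other two cKO values lay below them, with means of 0.935% ± 0.0149 and 0.848% ± 0.0809 (SD, n = 3). The summed FPKM of the 44 genes was 1218, 1129 and 1133 in Ctrl and 1023, 1198 and 969 in cKO, also with overlap. The *Col3a1*, *Col1a1*, *Col6a1*, *Col1a2* and *Col6a2* genes, the 5 most abundant, made 61.3% to 66.1% of that sum in every library, so the sum mostly follows them. The median over the 34 genes of each gene's centred level, which is its log2(FPKM + 1) minus its mean over the 6 libraries, weighs every gene alike. It was 0.11, 0.10 and 0.05 in Ctrl and -0.07, 0.03 and -0.15 in cKO, so by this measure the groups did not overlap, with a small gap between Ctrl 3 and cKO 2.

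The machinery that makes and handles collagen was described by 6 lists, which hold genes known for each step. Over all genes tested, 52.1% were below 0, 1.75% were called lower and 2.68% higher, with a median of -0.01. Of the 24 biosynthesis genes, which include the prolyl and lysyl hydroxylases, all were tested, 13 were below 0, 1 was called lower and none higher, with a median of -0.00. *Serpinh1*, the collagen chaperone HSP47, was at 312, 298 and 296 FPKM in Ctrl and 295, 426 and 217 FPKM in cKO, with a log2 fold change of -0.00. *Sparc*, a collagen-binding protein, was at 329, 278 and 282 FPKM in Ctrl and 275, 346 and 269 FPKM in cKO, also with a log2 fold change of -0.00. In both genes cKO 2 was the highest library, and for both the sign turned under median-ratio scaling and quantile normalization. The gene called lower was *Colgalt2*, which adds galactose to hydroxylysine of collagen. It was at 1.05, 3.08 and 2.05 FPKM in Ctrl and 0.884, 0.800 and 0.863 FPKM in cKO, and the log2 fold change of -0.67 (SE 0.26, unadjusted p = 0.0346 in limma) became -0.44 (unadjusted p = 0.105 in limma) without Ctrl 2.

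Of 13 processing and cross-linking genes 9 were tested, 8 were below 0, none was called and the median was -0.05. Among all genes tested, 52.1% were below 0 and 4.43% were called in either direction. *Pcolce*, an enhancer of procollagen cleavage, was at 34.4 to 40.7 FPKM in Ctrl and 31.0 to 45.2 FPKM in cKO, and the cross-linking oxidase *Loxl1* was at 40.1 to 41.3 and 27.5 to 43.5 FPKM. Of 23 fibril partners 20 were tested, 13 were below 0, none was called and the median was -0.12. *Mfap4*, a microfibril protein, was at 149, 141 and 141 FPKM in Ctrl and 119, 138 and 61.9 FPKM in cKO, without overlap (log2 fold change -0.51, SE 0.29). That value rested on single libraries, at -0.17 without cKO 3 and -0.74 without cKO 2. *Mfap2*, another microfibril gene, was at 196 to 224 and 167 to 225 FPKM. The summed FPKM of the fibril partners was 752 to 851 in Ctrl and 611 to 752 in cKO, where the lowest Ctrl and the highest cKO library differed by less than 1 FPKM. Of 16 basement membrane partners 15 were tested, 11 were below 0, none was called and the median was -0.07. The laminin chain gene *Lamb1* was at 37.2 to 39.6 FPKM in Ctrl and 31.0 to 36.7 FPKM in cKO, without overlap (log2 fold change -0.16), and *Lamc1* was at 36.5 to 45.6 and 32.1 to 40.3 FPKM.

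Of 11 collagen receptors 9 were tested, 7 were below 0, none was called and the median was -0.09. The shares over all genes tested were 52.1% below 0, 1.75% called lower and 2.68% called higher. The integrin chain gene *Itgb1* was at 114 to 132 FPKM in Ctrl and 117 to 128 FPKM in cKO, and *Adgrg1*, a receptor that binds type III collagen, at 28.6 to 54.7 and 31.8 to 47.2 FPKM. Of 14 genes of collagen breakdown and its inhibitors 12 were tested, 11 were below 0, 1 was called lower and the median was -0.13. *Mmp2*, a gelatinase that cuts denatured and type IV collagen, was at 134 to 139 FPKM in Ctrl and 117 to 135 FPKM in cKO, and the inhibitor *Timp2* at 58.3 to 69.5 and 56.7 to 66.6 FPKM. The gene called lower was the other gelatinase, *Mmp9*, at 1.39, 0.855 and 0.501 FPKM in Ctrl and 0.219, 0.438 and 0.159 FPKM in cKO. Its groups nearly met, and the log2 fold change of -0.57 (SE 0.22, unadjusted p = 0.0352 in limma) became -0.40 (unadjusted p = 0.103 in limma) without Ctrl 1.

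Whole ovaries mix cell types, and fewer cells of a type and less RNA per cell cannot be told apart in these libraries. No value here ties collagen RNA to the stroma. Of 12 stromal markers 11 were tested and 7 were below 0, with a median of -0.12, and *Dpt* was called lower (log2 fold change -0.50, unadjusted p = 0.0496 in limma). Of all genes tested, 52.1% were below 0 and 1.75% were called lower. The summed FPKM of the stromal markers was 210 to 262 in Ctrl and 207 to 230 in cKO, and no marker was listed at 0 in all libraries. The defining receptor gene *Pdgfra* was at 25.6 to 29.6 FPKM in Ctrl and 25.0 to 29.5 FPKM in cKO, and *Nr2f2* at 12.5 to 14.0 and 15.0 to 15.3 FPKM, higher in cKO without overlap. Markers of stromal cells thus did not share a direction, and their part in the collagen values was not tested.

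The 10 general germ-cell markers differed widely between libraries of the same group. Their summed FPKM was 91.0, 185 and 344 in Ctrl and 396, 159 and 488 in cKO, 8 of 10 were above 0 with a median of 0.43, 2 were called higher and 1 lower (2.68% and 1.75% of all genes), and none was listed at 0. With their mean level as a covariate, 28 of 34 collagens were below 0 with a median of -0.09, and 1 collagen, *Col4a5*, passed the unadjusted limit. Some of these markers were themselves called between the groups, so the covariate holds part of the group difference. The fit therefore does not isolate germ-cell content. Of 8 macrophage markers 7 were below 0 (52.1% of all genes) with a median of -0.24, and none was called. The summed FPKM of these 8 was 45.6 to 52.5 in Ctrl and 33.6 to 55.9 in cKO. Of 9 red blood cell genes 7 were below 0 with a median of -0.71, 1 was called higher, and their summed FPKM was 4861 to 22988 in Ctrl and 1717 to 10421 in cKO. Their part in the collagen values was not tested.

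No gene was called in the other 8 cell type lists, where 4.43% of all genes tested were called and 52.1% were below 0. Of the genes tested in each list, 3 of 10 pregranulosa, 1 of 5 mesothelium, 3 of 6 mesonephros, 6 of 9 endothelium, 6 of 7 perivascular, 3 of 5 cartilage, 0 of 2 keratinocyte and 2 of 3 peripheral glia genes were below 0. The medians were 0.04, 0.11, -0.02, -0.04, -0.08, -0.13, 0.27 and -0.05. The cartilage marker *Matn1* was at 0 in 5 of the 6 libraries, and the keratinocyte marker *Krt5* was at 0.0843 FPKM or below in all of them.

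**Figure D4:**
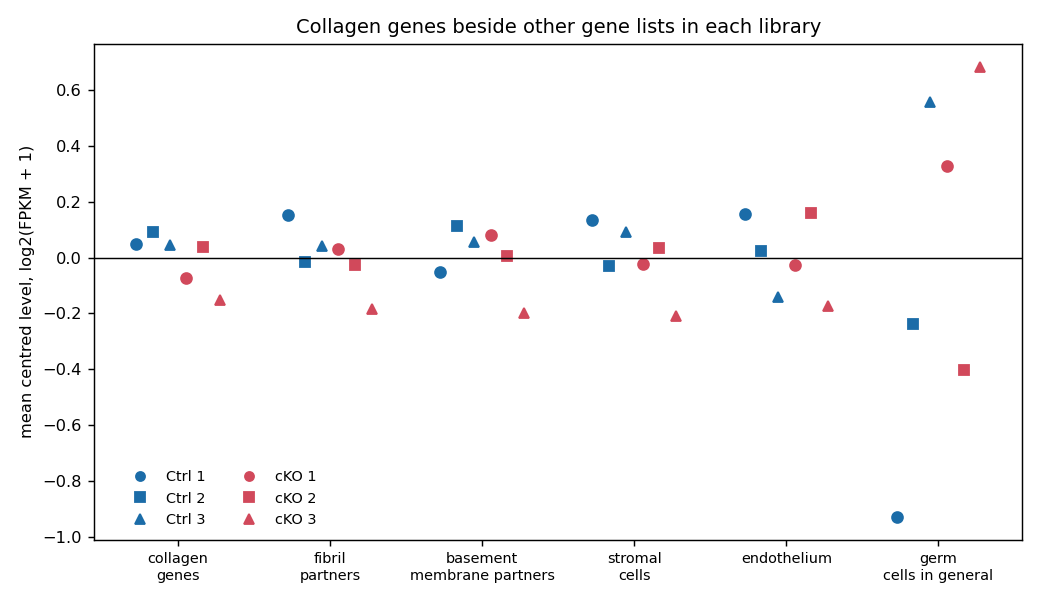
Mean centred level (log2(FPKM + 1) minus each gene's mean over the 6 libraries) of the collagen genes and 5 other lists, with 1 point per library (blue Ctrl, red cKO). The collagen points run from 0.09 in Ctrl 2 to -0.15 in cKO 3, with cKO 2 at 0.04 just under Ctrl 3 at 0.05, while germ-cell markers run from -0.93 in Ctrl 1 to 0.68 in cKO 3.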

How the data were processed

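RNA of whole ovaries at 16.5 dpc was sequenced in 3 Ctrl and 3 cKO libraries, grouped by their labels. Both the labels' tissue field and the paper name ovary, while the labels' extraction text names another tissue. The authors aligned reads with HISAT2 2.0.5 (per the submitters' notes) to GRCm38, counted them per gene and deposited FPKM values. FPKM times gene length gave whole reads within 0.05 for 100% of values, between 14212164 and 16784241 reads on genes per library, and the library size behind FPKM was 0.965 to 1.04 times those reads.

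Differences were fitted with limma 3.58.1 (R 4.3.3, two-sided, intensity trend) for the 17180 genes averaging at least 0.5 FPKM, on log2(FPKM + 1), after a test on simulated data, and p-values were adjusted over all of them. Because of the added 1, differences of genes at low levels come out too small. Standard errors and intervals from limma combine each gene's own spread between libraries with the spread of genes at similar levels. Columns of annotation served for names and coordinates, which equal GENCODE M21 for all 44 members. RefSeq promoter windows and GENCODE transcripts gave the sequences. Reads on overlapping genes can be shared, and 13 members share exon bases with another gene.

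The members, lists and tests were chosen with earlier results of these data known. Values by library are given for the 12 most abundant members, those past the unadjusted limit and those of the pairs *Col4a1*-*Col4a2*, *Col4a3*-*Col4a4*, *Col4a5*-*Col4a6*, *Col6a1*-*Col6a2* and *Col3a1*-*Col5a2*. Outside the family, the rule names *Srsf1*, list genes past the limit and the 2 most abundant genes of each of the 6 pathway lists. Other genes were chosen after their values were seen. The alternatives were other pseudocounts, minimum levels and scalings, voom on recovered reads, no trend, a replicate block, protein-coding genes alone, a germ-cell covariate and each library left out.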

Additional observations from a re-analysis of the deposited data

How the results depend on the processing

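The 2 collagen genes past the unadjusted limit stayed 2 at pseudocounts of 0.1 and 0.5, a minimum of 1 FPKM, median-ratio scaling, no intensity trend and protein-coding genes alone. With no minimum the count was 4, *Col4a5*, *Col4a6*, *Col5a3* and *Col6a6*, but that fit tested all 44 members. It called 3.94% of 33797 genes, 736 higher and 595 lower. The count was 3 with voom (4.03% of all genes), 1 with quantile normalization, 1 with the germ-cell covariate (470 lower over all) and 0 with the replicate block. The cause was not tested. Deviations of same-numbered libraries had correlations of -0.39, -0.03 and 0.12, against -0.34 to 0.35 for differently numbered ones. These values gave no sign of pairing by number, but with 3 libraries a group they cannot exclude it. Under the block 434 genes were higher and 247 lower. The median collagen log2 fold change was -0.19 with voom, against -0.03 over all genes, and between -0.14 and -0.089 in the other fits with all 6 libraries. With each library left out in turn, collagen calls ranged from 0 to 6, higher genes from 201 to 1457, lower genes from 163 to 1036, and the median from -0.19 to -0.065. The sign turned under median-ratio scaling for *Serpinh1* (0.0029) and *Sparc* (0.0049), and under quantile normalization for *Serpinh1* (0.059) and *Sparc* (0.074). It turned with the germ-cell covariate for *Adgrg1* (0.11), *Col12a1* (-0.14), *Col13a1* (0.056), *Col20a1* (-0.045), *Col23a1* (0.030), *Col4a1* (0.019), *Col4a2* (0.074), *Mfap2* (0.0058), *Pcolce* (0.061), *Serpinh1* (0.13) and *Sparc* (0.086). With a library left out it turned for *Adgrg1* (-0.36 to 0.096), *Col11a1* (-0.010 to 0.17), *Col11a2* (-0.11 to 0.032), *Col12a1* (-0.12 to 0.21), *Col13a1* (-0.11 to 0.033), *Col18a1* (-0.043 to 0.13), *Col20a1* (-0.022 to 0.32), *Col23a1* (-0.098 to 0.057), *Col26a1* (-0.44 to 0.0072), *Col4a2* (-0.22 to 0.028), *Col7a1* (-0.14 to 0.049), *Col8a1* (-0.20 to 0.019), *Col8a2* (-0.36 to 0.021), *Mfap2* (-0.17 to 0.041), *Pcolce* (-0.21 to 0.056), *Serpinh1* (-0.25 to 0.23) and *Sparc* (-0.12 to 0.075). With 3 libraries a group, the 95% intervals of the members from limma reached at least 0.24 to either side on the log2 scale. Smaller differences of single genes were therefore not detectable in that fit.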
